A study of Mus musculus with 24 samples.

Results

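BXH4 is a recombinant inbred (RI) mouse strain, and 2 lung arrays of it, replicates 1 and 2, were taken by their labels from a series of 24 arrays. The mice were males from the Jackson Laboratory, 8 weeks of age, and whole lung RNA was measured. Affymetrix Mouse 430A arrays give 1 signal per probe set, that is, per set of probes designed to a single transcript. BXH4 was compared with the 16 arrays of the other 8 BXH strains (BXH2, BXH6, BXH7, BXH8, BXH9, BXH10, BXH14 and BXH19), 2 arrays each. Its levels were then placed against those of the parents of the BXH set, C57BL/6J (B6) and C3H/HeJ (C3), with the BXHF1 hybrid (F1) beside them, again 2 arrays each. The labels name no treatment and give n = 1 for each sample. They do not say that a strain's arrays are of different mice, so the p-values rest on the spread within a strain, which may be technical.

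An RI strain is bred by inbreeding the descendants of a cross between 2 inbred strains until nearly every locus is fixed for the allele of one progenitor. A gene whose level depends on an allele nearby therefore tends to sit at one progenitor's level in each RI strain. Levels outside both progenitors can appear where alleles of both parents come together. In lung, natural killer (NK) cells are resident in the capillary bed, where they kill infected cells with granzymes and perforin. Interferons induce antiviral enzymes and guanylate-binding GTPases in epithelium and leukocytes alike.

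All 24 arrays had the same 2% trimmed mean signal (500.11 to 500.13), and their medians ran from 239 to 269.6. The BXH4 arrays correlated at 0.955 over the tested genes, against 0.949 to 0.975 for the other pairs, and each was the closest array to the other. The lung markers Sftpc, the surfactant protein of alveolar type 2 cells, and Scgb1a1, the secretoglobin of club cells, were present in BXH4: Sftpc stood at 19988 and 12921 and Scgb1a1 at 18168 and 12006 on replicates 1 and 2. Ager of alveolar type 1 cells and Cldn5 of endothelium lay within the range of the other RI arrays. Sftpb, a further surfactant protein, was highest of all 24 arrays on replicate 1, and none of these 5 genes passed. The BXH4 arrays differed from each other in genes of skeletal muscle and squamous epithelium, and the source of that RNA was not tested. The mean of 15 skeletal muscle genes, as log2(signal + 16), was 9.24 on replicate 1 and 6.81 on replicate 2, within 6.74 to 11.49 over the other RI arrays. The mean of 5 squamous epithelial genes was likewise 9.30 and 6.83 on the BXH4 arrays. C3 replicates 1 and 2 also differed in the skeletal muscle mean, at 7.07 and 10.27.

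In BXH4, 632 of 8280 tested genes (7.63%) differed from the mean of the other 8 RI strains at an adjusted p below 0.05 in limma, 291 of them higher (3.51%) and 341 lower (4.12%). The other RI strains, each compared with the remaining 8 in the same way, gave 97 to 172 genes. BXH4 thus had the longest list of the 9 strains in both directions, since the other strains had 40 to 103 higher and 49 to 69 lower. The signals of both BXH4 arrays lay beyond all 16 other RI arrays at 315 of the 632 genes, and at 528 of all 8280 (6.38%; above in 3.37%, below in 3.01%). Just inside the threshold stood Cpeb4, 0.40 lower on the log2 scale (adjusted p = 0.04996), and just outside it Ppp1r8, 0.37 lower (adjusted p = 0.0503). The count depended on the BXH4 arrays more than on any others: it was 243 without replicate 1 and 134 without replicate 2, of which 178 and 112 were among the 632. With each strain reduced to its mean, so that BXH4 is set against the spread between 8 strains, 11 genes passed (0.133%). These were Ccl5, Bad, Irf7, Lfng, Pglyrp1, Nkg7, Jund, Rpl22l1, Tbc1d8, Spata5 and Exd2, of which the last 2 are outside the 632. Bad, a death-promoting member of the Bcl2 family, passed through 1 array: its signal was 682 on BXH4 replicate 1 and 148 on replicate 2, with 573 to 762 over the other RI arrays.

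**Figure D1:**
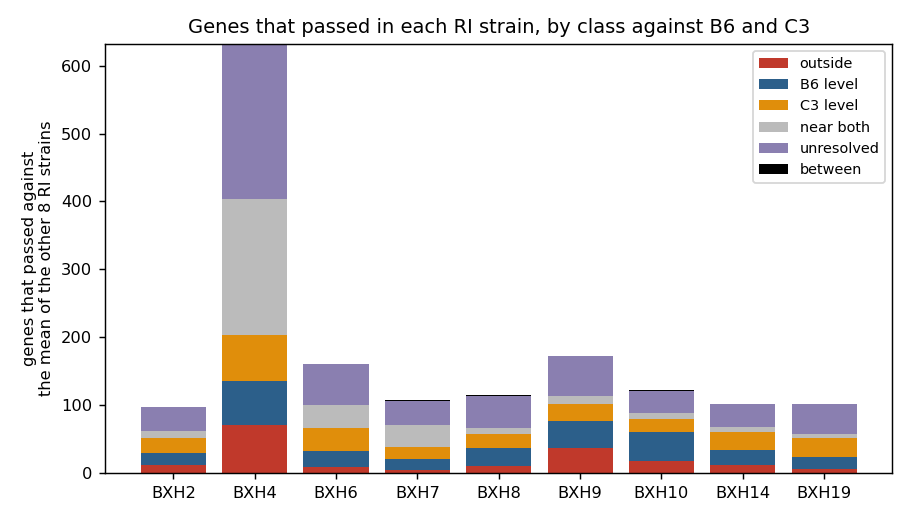
Number of genes (vertical axis) that passed against the mean of the other 8 RI strains in each RI strain (horizontal axis), stacked by class against B6 and C3. The BXH4 bar reaches 632 genes and the other bars 97 to 172.

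Each of the 632 genes was placed against the progenitors through the contrasts BXH4 minus B6 (264 of 8280 genes passed, 3.19%) and BXH4 minus C3 (280 passed, 3.38%). These contrasts share the BXH4 arrays with the comparison that chose the genes, so the classes describe the genes and are no further evidence for them. In 71 genes (11.2% of the 632, beside 1.09% of all tested) BXH4 was outside, meaning that it differed from both progenitors in the same direction. In 65 genes (10.3% of the 632, beside 1.73% of all tested) it was at the B6 level. That means different from C3 and within 0.5 of B6 on the log2 scale. In 67 (10.6%, beside 1.39%) it was at the C3 level, defined in the same way. Neither class requires that C3 and B6 themselves differ. A further 200 genes (31.6%, beside 83.3% of all tested) were near both progenitors, and 229 (36.2%, beside 12.5%) were unresolved. The unresolved genes exceeded 0.5 from a progenitor without passing, or passed against 1 progenitor without being near the other. None lay between the progenitors. The other RI strains had 4 to 37 outside genes among those that passed, 3.74% to 21.5% of their lists. BXH4's 71 was the highest count, while its share of 11.2% was within that range.

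**Figure D2:**
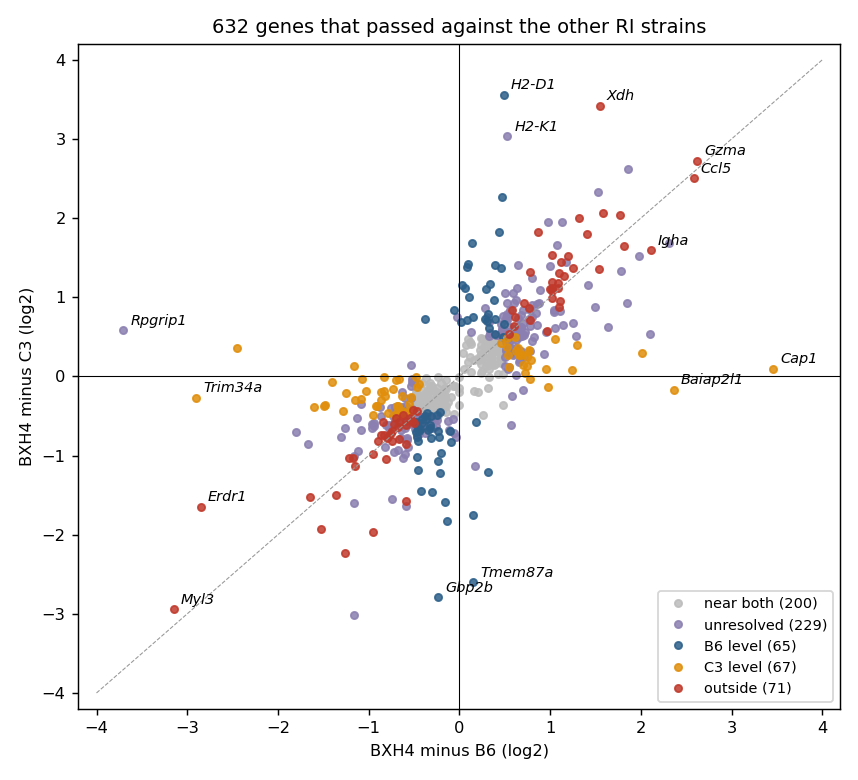
Each of the 632 genes by its log2 difference from B6 (horizontal) and from C3 (vertical) in BXH4, coloured by class. Outside genes (71) lie along the dashed diagonal away from the centre, B6-level genes (65) along the vertical axis and C3-level genes (67) along the horizontal axis.

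Of the 71 outside genes, BXH4 was above both progenitors in 35 and below both in 36, beside 0.58% and 0.507% of all tested genes. Both its arrays lay beyond all 16 other RI arrays in 43 of them, beside 315 of the 632 genes and 6.38% of all tested genes. At no outside gene did both F1 arrays reach the nearer BXH4 array. The mean of the other 8 RI strains was also beyond both progenitor means, in the same direction, at 49 of the 71, but at a median of 0.13 over all 71 genes, where BXH4 was beyond the nearer progenitor by a median of 0.88. The exception was Igha, the constant region of immunoglobulin A. Its BXH4 signals were 854 and 1110. The B6 arrays gave 211 and 216, the C3 arrays 303 and 322, and the other RI arrays 878 to 4312 (median 1997). Igha was therefore above both progenitors in BXH4 and still 1.02 below the other RI strains (adjusted p = 0.0232), and its call ended without either BXH4 array (adjusted p = 0.223 and 0.107). The 71 also moved with which progenitor arrays were used: 17 genes were outside without B6 replicate 2, 33 without B6 replicate 1 and 27 without C3 replicate 2, and 25 without BXH4 replicate 2.

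The 2 largest outside increases were in Ccl5 and Gzma, genes of cytotoxic lymphocytes, and Nkg7 of the same list was the fourth, after Xdh. Ccl5, a chemokine that attracts T cells and monocytes, had signals of 4173 and 3728 in BXH4, against 404 to 861 (median 690) over the other RI strains. B6 gave 800 and 521, and C3 gave 713 and 656. Neither BXH4 array overlapped any array of another strain. The difference from the other RI strains was 2.55 ± 0.17 (log2, SE; adjusted p = 5.97e-08). Gzma, granzyme A, reached 3752 and 3078 in BXH4 against 236 to 1537 (median 548), a difference of 2.40 ± 0.23 (adjusted p = 5.65e-06). For Gzma the other RI strains spread widely. Both arrays of BXH7, BXH9 and BXH19 were above the progenitors' 467 to 559, both arrays of BXH6 and BXH10 were below, and BXH2, BXH8 and BXH14 had an array within that range. With strain means as samples it missed the threshold (adjusted p = 0.239). Nkg7, a protein of the membrane of cytotoxic granules, stood at 789 and 1010 against 180 to 382 (median 265), a difference of 1.69 ± 0.20 (adjusted p = 6.58e-05).

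Of the 30 genes of the NK cell list, 12 were tested, and 10 of them were higher in BXH4 and none lower, beside 3.51% and 4.12% of all tested genes. Their median difference was 1.00, against 0.01 over all genes. Of the 10, 7 were outside both progenitors: Ccl5, Gzma, Nkg7, the pore-forming perforin Prf1 (1.12), the transcription factor Tbx21 (0.98), the activating receptor Klrk1 (1.22, without BXH4 replicate 1 adjusted p = 0.0802) and the inhibitory receptor Klrg1 (0.99). The receptor chains Il2rb (1.00), Klrd1 (0.97) and Il18rap (0.73) were higher too but unresolved against the progenitors. The chemokine Ccl4 (0.56, adjusted p = 0.0573) and granzyme K, Gzmk (0.28, adjusted p = 0.359), did not pass. The mean log2 level of the 12 genes was 9.41 and 9.38 on the BXH4 arrays and 7.62 to 8.67 on the other RI arrays, so the ranges did not overlap. The progenitor and F1 arrays gave 7.69 to 8.36. Without BXH4 replicate 1 or 2 the count of 10 became 4 or 5, and it was 3 among the brightest 40% of probe sets and 2 with strain means as samples. Tbx21 had entered the test only through the BXH4 arrays, because its mean without them lay below the filter on low signals.

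A further 14 NK genes lay below that filter and 4 were not on the array under a single gene name. When all 12393 genes were tested without the filter, 4 of the 14 passed, each of them higher, beside 2.1% of all genes higher and 2.36% lower in that fit. Ncr1, the NK receptor NKp46, stood at 589 and 491 in BXH4 and at 97.9 to 282 (median 144) in the other RI arrays, a difference of 1.78 ± 0.19 (adjusted p = 7.57e-05), with 122 to 178 in the progenitors. Klra8, the activating receptor Ly49H, gave 186 and 181 in BXH4 and 25.5 and 28.9 in B6, against 0.7 and 0.5 in C3. Its difference from the other RI strains was 2.30 ± 0.17 (adjusted p = 1.59e-06). Both BXH4 arrays were above the highest other RI array, at 114. The receptor Klrc1 (1.24) and the transcription factor Eomes (0.84) were the other two. In whole lung, more NK or other cytotoxic lymphocytes and more of each RNA per cell cannot be told apart. Which of these cells held the RNA was not tested.

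Itgb7, the integrin chain that guides lymphocytes to mucosa, was outside, with 720 and 750 in BXH4 and 141 to 492 (median 278) in the other RI arrays (1.43 ± 0.23, adjusted p = 0.00135). Of 27 T cell genes, 7 were tested and 2 were higher, beside 3.51% of all tested genes, the signalling adaptor Lat (0.85) and the receptor chain Cd3g (0.68). Both calls ended without either BXH4 array. Off that list, the T cell receptor segments Trbv1 and Trav9d-3 were higher and outside, 1.02 and 0.88 above the nearer progenitor. Of the list, Cd3e and Cd3d, the other defining receptor chains, lay below the filter with 12 further members. Of these 14 genes 13 were on the positive side and 1 passed without the filter. That gene was Cd8b1, the beta chain of the CD8 co-receptor, with 165 and 140 in BXH4 above the 42.7 to 121 of the other RI arrays (0.78, limma adjusted p = 0.0236). Cd3e gave 249.4 and 364 in BXH4, overlapping the 48.3 to 361 (median 171) of the other RI arrays, a difference of 0.90 that did not pass in limma without the filter (adjusted p = 0.264). Of 13 tested B lineage genes none passed, with a median of −0.12. Not on that list, the immunoglobulin light chain segment Igkv8-30 was lower (−0.86), as was Igha. Jchain, which joins IgA and IgM units, had 459 and 589 in BXH4 and 771 to 2256 in the other RI arrays, a difference of −1.33 that did not pass (adjusted p = 0.0687). None of 10 tested neutrophil genes passed, although all were on the positive side (median 0.40). Of 11 monocyte and dendritic cell genes 2 were higher, beside 3.51% of all tested genes, the lectin receptor Cd209a (0.87) and Ms4a6b (0.60). Neither held without BXH4 replicate 2. The interferon regulatory factor Irf8 did not pass (0.39, adjusted p = 0.114).

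**Figure D3:**
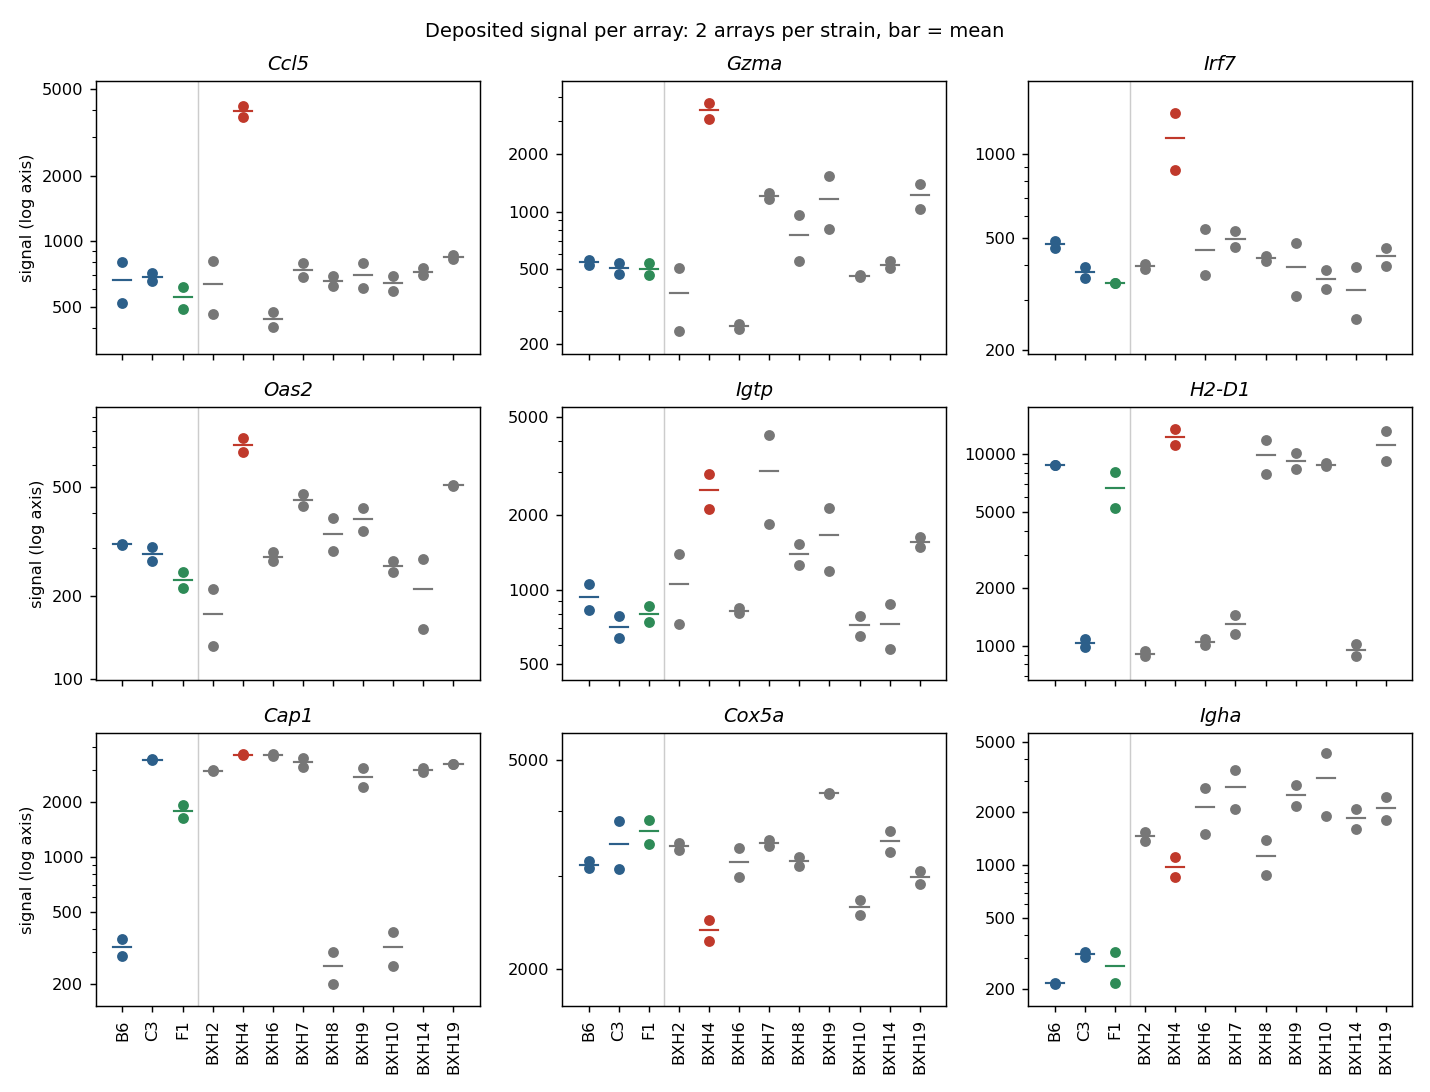
Deposited signal (vertical, log axis) of 9 genes on both arrays (points) of each strain (horizontal), with their mean as a bar: BXH4 in red, B6 and C3 in blue, F1 in green, other RI strains in grey. Ccl5, Gzma, Irf7 and Oas2 are highest in BXH4, Igtp is highest on BXH7 replicate 1, H2-D1 sits with B6 and Cap1 with C3, Cox5a is lowest in BXH4, and Igha lies between the progenitors and most RI strains.

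Interferon response genes included many that were higher in BXH4. Of 47 genes of the list 30 were tested, and 17 were higher and none lower, beside 3.51% and 4.12% of all tested genes. The median was 0.59, and 29 of the 30 were on the positive side. Irf7, the transcription factor that amplifies the interferon response, had signals of 1405 and 881 in BXH4 and 257 to 542 (median 403) in the other RI arrays. B6 gave 464 to 488 and C3 362 to 396. The lower BXH4 array was above every array of the other strains, and the difference was 1.43 ± 0.18 (adjusted p = 1.03e-04). Oas2, an enzyme that makes the activator of RNase L, gave 667 and 750 against 132 to 509 (median 290), a difference of 1.18 ± 0.17 (adjusted p = 5.58e-04). Both calls held without either BXH4 array.

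Several GTPases overlapped other strains. Irgm2 stood at 1571 and 1259 in BXH4 but reached 1442 on BXH7 replicate 1, where its neighbour Igtp reached 4198, above BXH4's 2943 and 2118. The Irgm2 call ended without either BXH4 array (adjusted p = 0.132 and 0.0703). Both genes were outside the progenitors, whose arrays gave 355 to 481 for Irgm2 and 638 to 1050 for Igtp. Gbp7 (0.74) and Ifit3 (0.48) completed the 6 outside members, with Irf7 and Oas2. Stat2 (1.04), Oasl2 (0.99), Gbp6 (0.90) and Ifit1 (0.57) were higher but unresolved. For Stat2, Oasl2 and Ifit1 both BXH4 arrays were above all 16 other RI arrays, while Gbp6 overlapped them. Ifit3 also stood clear of them. Usp18 (0.47), which removes the interferon-induced modifier Isg15, was at the B6 level. Rsad2 (0.02) and Trim30a (−0.02) did not pass. Below the filter lay 8 members, Cxcl9 (1.01) and Cxcl10 (0.52) among them, and none of the 8 passed without it. The count of 17 was 2 without BXH4 replicate 1, 6 without replicate 2, 1 with strain means as samples and 11 with the skeletal muscle mean as a covariate.

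The promoters of 4 of the outside interferon genes are printed because they hold the core of the interferon-stimulated response element on either strand: GAAA, any 2 bases, and GAAA again. They are the 170 bases before the gene start from RefSeq (GRCm38.p6, plus strand), at chr11:58199386-58199555 (Igtp), chr11:58214807-58214976 (Irgm2), chr3:142530166-142530335 (Gbp7) and chr19:34583359-34583528 (Ifit3), with each match in capitals.
Igtp: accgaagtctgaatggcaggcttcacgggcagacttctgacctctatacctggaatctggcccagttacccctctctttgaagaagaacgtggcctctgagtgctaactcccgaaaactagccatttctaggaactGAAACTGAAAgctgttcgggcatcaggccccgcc
Irgm2: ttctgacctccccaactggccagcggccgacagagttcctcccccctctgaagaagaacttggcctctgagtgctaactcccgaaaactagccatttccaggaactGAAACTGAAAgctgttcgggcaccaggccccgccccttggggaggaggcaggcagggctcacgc
Gbp7: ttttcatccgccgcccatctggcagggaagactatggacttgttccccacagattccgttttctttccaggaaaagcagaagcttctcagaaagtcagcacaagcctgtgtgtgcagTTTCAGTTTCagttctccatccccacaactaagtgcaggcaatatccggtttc
Ifit3: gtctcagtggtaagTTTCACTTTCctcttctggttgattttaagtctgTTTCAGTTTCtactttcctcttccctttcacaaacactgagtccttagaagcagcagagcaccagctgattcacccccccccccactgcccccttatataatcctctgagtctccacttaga
Igtp and Irgm2 are close relatives, and around the match 88 of 90 bases were identical. Their matches began 34 and 64 bases before the start, that of Gbp7 at 53, and those of Ifit3 at 156 and 122. In the windows of 300 bases in the table, from 250 before to 50 after the start, 8 of 12 interferon list members that were higher in BXH4 held the motif (66.7%), as did 15 of 23 tested members (65.2%), against 1079 of 27025 promoters (3.99%). The share in the members that were higher was thus close to that in the whole list. Among all genes higher in BXH4 it was 13 of 221 (5.88%), and among those also outside both progenitors 5 of 28 (17.9%), 4 of which are the genes printed. The STAT element TTCNNNGAA was found in 4 of the 12 (33.3%), 8 of the 23 (34.8%) and 2582 of all promoters (9.55%). Oas2 had no entry, and the window of Irf7 did not hold the first motif.

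Of 16 tested class I antigen presentation genes 5 were higher and none lower (median 0.32), beside 3.51% and 4.12% of all tested genes. By class, 1 was outside, 2 were at the B6 level and the other two were unresolved. Tap1, the transporter that loads peptides onto class I, was outside, at 1081 and 945 in BXH4, 259 to 857 (median 567) over the other RI strains, 557 and 609 in B6, and 364 and 432 in C3 (0.92 ± 0.15, adjusted p = 0.00132). H2-D1 and H2-K1, the classical class I heavy chains, sat with B6. H2-D1 gave 13593 and 11226 in BXH4, 8824 and 8797 in B6, and 1086 and 985 in C3. The other RI strains fell apart: BXH8, BXH9, BXH10 and BXH19 gave 7908 to 13260, and BXH2, BXH6, BXH7 and BXH14 gave 882 to 1443. BXH4 was 1.95 ± 0.16 above the mean of the other RI strains (adjusted p = 7.90e-07), 3.56 above C3 and 0.49 above B6, the last without passing (adjusted p = 0.247). The same strains were high and low for H2-K1, with 14053 and 11335 in BXH4 (1.56 ± 0.12, adjusted p = 7.90e-07). H2-K1 counted as unresolved because its distance from B6, 0.53, was just past the 0.5 that bounds a progenitor level, and H2-D1 was just within it.

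These class I values depend on the probe set. H2-D1 has 8 other probe sets, of which 3 gave the opposite sign, with differences from −2.18 to 3.85. H2-K1 has 3 others, all positive (1.25 to 2.58). Class I genes are near-identical and polymorphic, so cross-hybridisation, a sequence difference under a probe and a difference in RNA cannot be told apart on these arrays. The same holds for a sequence difference at any gene below that sits at a progenitor's level. H2-M3, which presents formylated bacterial peptides, was at the B6 level, with 1387 and 1360 in BXH4 above all other RI arrays (401 to 1226; 0.90 ± 0.12, adjusted p = 2.92e-04). The immunoproteasome subunit Psmb8 (0.47) was the fifth, and its call ended without either BXH4 array. Of 10 tested class II genes 3 were higher, beside 3.51% of all tested genes, the master regulator Ciita (0.87), H2-Ab1 (0.53) and H2-DMa (0.38), and none of the 3 passed without either BXH4 array. H2-Ea, whose promoter is deleted in the B6 haplotype, lay below the filter at 14.1 and 17.8 in BXH4, 29.1 and 9.5 in B6, and 117 and 108 in C3. Without the filter it was lower than in the other RI strains (−1.15, limma adjusted p = 0.0104), opposite in direction to those 3 genes.

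Beside the immune genes, Xdh, xanthine dehydrogenase of purine breakdown, was the largest outside increase. It stood at 3067 and 3005 in BXH4, 932 and 1138 in B6, 407 and 177 in C3, and 328 to 1865 (median 689) in the other RI arrays. Both BXH4 arrays were above all others, by 1.96 ± 0.23 over the other RI strains (adjusted p = 6.58e-05), although the progenitors differed too, C3 being 1.87 below B6. Tubb4a, a beta tubulin, gave 1234 and 1357 against 323 to 865 (1.32, adjusted p = 6.58e-05). Rap1gap, a GTPase activator for Rap1 (1.02), the haematopoietic factor Gata2 (0.64) and the secreted glycoprotein Lgals3bp (0.84) also exceeded all 16 arrays. These 3 were chosen after their values were seen.

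Decreases outside both progenitors included epithelial and muscle genes. Pof1b, an actin-binding protein of epithelial junctions, gave 212 and 272 in BXH4 and 321 to 659 (median 540) in the other RI arrays, with 493 to 568 in the progenitors (0.96 lower, log2; adjusted p = 6.71e-05). Krt19, a keratin of simple epithelium and mesothelium, gave 1103 and 912 against 1183 to 3381 (adjusted p = 1.09e-04), with 1364 and 1699 in B6 and 2613 and 3498 in C3. Both held without either BXH4 array, as did the predicted gene Gm12338, where BXH4 fell by 0.87. Igfbp2, a binding protein of insulin-like growth factors found in alveolar type 1 cells, gave 1460 and 1192 against 1292 to 5361 and fell by 0.90 (adjusted p = 0.00128). Without replicate 2 its adjusted p was 0.0638. Erdr1, a gene of the pseudoautosomal region, stood at 455 and 299 in BXH4, 3832 and 1991 in B6, and 1124 and 1259 in C3, but BXH7 and BXH9 were as low, at 310 to 359. Its call ended without replicate 2 (adjusted p = 0.0594). Ccn4, a secreted matrix protein (1.27 lower; adjusted p = 0.00299), and Tnfrsf12a, the receptor of the cytokine TWEAK (1.04 lower; adjusted p = 0.00599), were also lower. Ccn4 missed the threshold without replicate 2 and Tnfrsf12a without either BXH4 array.

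The largest decreases among the outside genes, in muscle genes, came mostly from replicate 2, the array with the lower skeletal muscle mean. Myl3, a myosin light chain of heart and slow muscle, gave 316 on replicate 1 and 23 on replicate 2, with 126 to 1673 (median 591) in the other RI arrays, a difference of −2.17 ± 0.54 (adjusted p = 0.0222). Without replicate 2 it was −0.63 (adjusted p = 0.631). Pgam2, the muscle phosphoglycerate mutase, gave 107 and 32.2 and missed the threshold without replicate 2 (adjusted p = 0.0606). Of 15 tested skeletal muscle genes 2 were lower, Mb (−1.03) and Eno3 (−0.81), with a median of −1.01, and of 11 cardiac muscle genes 3 were lower, with a median of −0.60, beside 4.12% of all tested genes. The cardiac mean was alike on both BXH4 arrays, 9.39 and 9.42. The part of muscle content in these differences was not tested gene by gene. With the muscle mean of each array as a covariate, 402 genes passed in place of 632, 24 of them outside.

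**Figure D4:**
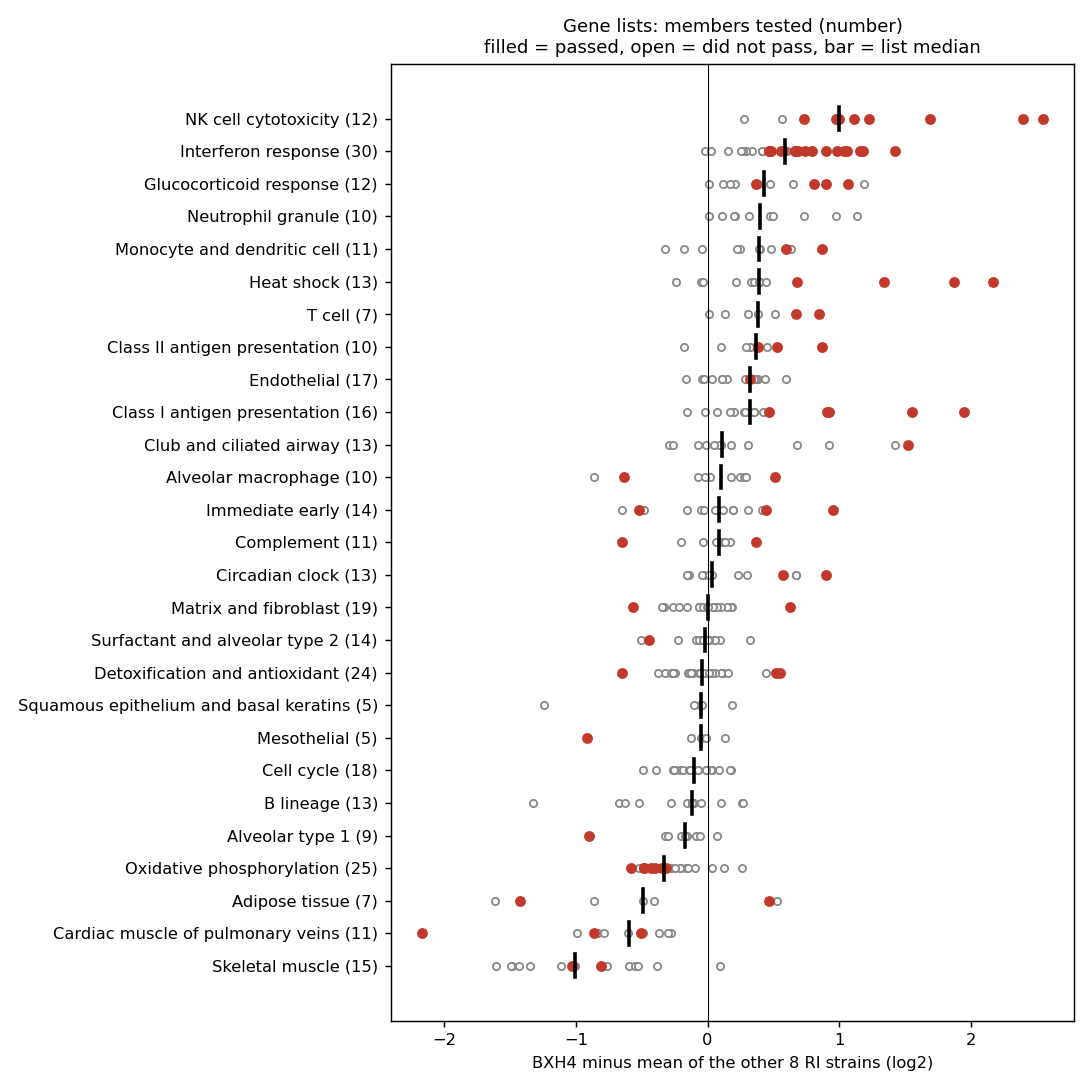
Log2 difference of BXH4 from the mean of the other 8 RI strains (horizontal) for each tested member of 27 gene lists (vertical, with the number tested), filled where the member passed, with the list median as a bar. The NK cell list has the highest median, 1.00, and the skeletal muscle list the lowest, −1.01.

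Of 25 tested subunits of oxidative phosphorylation, the mitochondrial respiratory chain and ATP synthase, 7 were lower and none higher, beside 4.12% and 3.51% of all genes, and 22 of 25 were not above 0, with a median of −0.33. Cox5a, of complex IV, gave 2477 and 2261 in BXH4, below the 2531 to 4325 of the other RI arrays, a difference of −0.48 ± 0.08 (adjusted p = 0.00237). Uqcrh of complex III (−0.58), Cox4i1 of complex IV (−0.48), the electron carrier Cycs (−0.43), Atp5o of ATP synthase (−0.40), Ndufa4, an associated subunit (−0.35), and Ndufv2 of complex I (−0.32) were the rest. Atp5o was the member outside both progenitors. The list mean was 11.02 and 10.83 in BXH4 and 11.04 to 11.44 in the other RI arrays. Without BXH4 replicate 1 or 2 the count was 3 or 0, with the muscle covariate 4, with the mean of each gene's probe sets 12 and with strain means as samples 0.

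Of 13 heat shock genes 4 were higher and none lower, beside 3.51% and 4.12% of all tested genes: the inducible chaperones Hspa1b (2.17) and Hspa1a (1.87) and the co-chaperones Hsph1 (1.34) and Dnaja1 (0.68). Hspa1a gave 1360 and 1398 in BXH4 against 161 to 1141 (median 294). Of 12 glucocorticoid response genes 4 were higher, beside the same 3.51%, among them Fkbp5, a regulator of the glucocorticoid receptor, at 1713 and 1584 against 373 to 1732 (1.06), and Per1 (0.90). No member of either list was outside both progenitors, and none of these 8 calls held without either BXH4 array. The heat shock mean was 11.51 and 11.46 in BXH4, within the 10.43 to 11.52 of the other RI arrays, of which BXH14 replicate 1 was the highest. The mean of 13 clock genes, 9.78 and 9.96 in BXH4, was within 9.13 to 10.12 of the other RI arrays. The progenitor and F1 arrays gave 8.72 to 9.13. A level above them was not particular to BXH4, since the lowest other RI array equalled their highest, at 9.13. The part of sampling conditions in these values was not tested.

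Some secreted proteins were higher but overlapped other strains or rested on both BXH4 arrays. Retnla, a secreted resistin-like protein, gave 13996 and 12131 in BXH4 and 1748 to 13095 (median 4404) in the other RI arrays (1.69, adjusted p = 0.0479). Chil4, a chitinase-like protein, was 2.70 higher (adjusted p = 0.0436), with 951 and 1410 against a median of 134, but 1 other RI array reached 4551. Fcgbp (1.90) and the immunoglobulin transporter Pigr (0.92) were also higher. These 4 were chosen after their values were seen. C3 replicate 2 was high for all 4 as well. It gave 11688 for Retnla, and it was above both BXH4 arrays for Chil4 (1462), Fcgbp (1898) and Pigr (2527). C3 replicate 1 gave 2280 for Retnla, 74.8 for Chil4, 298 for Fcgbp and 957 for Pigr. The airway mucin Muc5b gave 1817 and 2884 against 485 to 1590 (1.52, adjusted p = 0.0273), above all 16 arrays, but did not pass without either BXH4 array. Of 13 tested airway genes Muc5b was the only one that passed. Its C3 arrays disagreed, with a mean of 1164 and an SD of 1164.

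Among the 65 genes at the B6 level, 26 were higher and 39 lower than in the other RI strains. The 65 became 21 without BXH4 replicate 1 and 15 without replicate 2. After H2-D1, the largest increases were in Pttg1, securin of the cell cycle (1.22), Ifi209, an interferon-inducible gene (1.14), Apobec3, a deaminase that restricts retroviruses (1.14), Tmem71 (0.92) and H2-M3. Apobec3 gave 874 and 770 in BXH4, 556 and 692 in B6, 307 and 292 in C3, and 211 to 838 in the other RI arrays (adjusted p = 7.10e-05). Pttg1 gave 5227 and 5334 in BXH4, beside 4957 and 4641 in B6 and 1062 and 2514 in C3. The largest decreases were in Tmem87a (−1.02), the plasminogen-binding lectin Clec3b (−0.98), the adhesion molecule Nrcam (−0.94), the GTPase Gbp2b (−0.93), the troponin Tnnc1 (−0.91) and the integrin chain Itga9 (−0.75). Gbp2b gave 85.7 and 94.6 in BXH4, 132 and 89.9 in B6, and 749 and 684 in C3, so this GTPase was low where Gbp7 and Gbp2 were higher. Among the other RI strains BXH7 and BXH10 were near or above C3, at 710 to 1711, and the other 6 gave 59.5 to 153. Glo1, which detoxifies methylglyoxal, was at the B6 level as well (−0.65, adjusted p = 0.00134). At Clec3b, Tnnc1 and Itga9 C3 minus B6 did not pass in limma (adjusted p = 0.0796 to 0.543). Of the 12 largest differences, those of H2-D1, Pttg1, Apobec3 and H2-M3 passed without either BXH4 array. Ifi209, Tmem71, Tmem87a and Clec3b missed the threshold without replicate 2, Nrcam, Tnnc1 and Itga9 without replicate 1, and Gbp2b without either.

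Among the 67 genes at the C3 level, 27 were higher and 40 lower, and the 67 became 23 without BXH4 replicate 1 and 13 without replicate 2. Cap1, a regulator of actin turnover, gave 3652 and 3661 in BXH4, 3402 and 3441 in C3, and 352 and 286 in B6. BXH8 and BXH10 were at the B6 level (200 to 383) and the other 6 RI strains lay at 2436 to 3687. BXH4 exceeded the mean of all 8 by 1.08 (adjusted p = 1.09e-04). Pglyrp1, a peptidoglycan recognition protein of neutrophil granules, gave 1085 and 1094 in BXH4 and 67.3 to 350 in the other RI arrays (2.10, adjusted p = 0.00153). Its C3 arrays disagreed, at 493 and 1576, beside 253 and 263 in B6. The Notch-modifying enzyme Lfng (0.98), the transcription factor Jund (0.95), Lrg1 (0.78) and the lymphatic growth factor Vegfd (0.75) were the other increases. C3 minus B6 did not pass in limma at these 4 or at Pglyrp1 (adjusted p = 0.0793 to 0.398). For Lfng, Jund and Vegfd both BXH4 arrays were above all 4 progenitor arrays. Lfng missed the threshold without replicate 2, and Jund and Lrg1 without either BXH4 array. Exosc9 of the RNA exosome (−1.18), the cAMP phosphodiesterase Pde7a (−1.16), Sc5d of cholesterol synthesis (−1.04) and the ribonucleoprotein assembly factor Naf1 (−0.93) were lower, and all 4 held without either BXH4 array. At Naf1 C3 minus B6 did not pass in limma either (adjusted p = 0.355). Sc5d gave 235 and 221 in BXH4, below every other RI array (250 to 775). Its signals were 312 and 295 in C3 and 695 and 753 in B6. The direction of Pdxdc1 (−1.48) and Trim34a (−1.23) was not settled, since another probe set of each gave the opposite sign (2.10 and 0.97).

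Which progenitor BXH4 resembled was read at the 138 genes that differed between C3 and B6 (1.67% of those tested). The BXH4 arrays enter that comparison only through the shared spread, the filter on low signals and the choice of probe set. BXH4 was nearer B6 at 71 and nearer C3 at 67. At 7 genes its level was past B6 by more than 0.5 of the difference between the progenitors, and at 5 it was past C3 by that much. On chromosome 17, which carries the class I and class II genes, all 12 such genes were on the B6 side. Among them were Glo1, H2-K1, Tnxb, Lst1, H2-D1, Gabbr1, H2-M3 and Xdh. Decr2 and Rcan2 were near the middle, at 0.49 and 0.48 of the way from B6 to C3. On chromosome 14, 8 of 9 were on the C3 side, including Ang, Rnase4, Rpgrip1 and Supt16, and on chromosome 6, 11 of 13 were on the B6 side. Where 2 such genes had at most 50 annotated genes between them in RefSeq order (GRCm38.p6), both were on the same side in 18 of 27 pairs. Nnt, the mitochondrial transhydrogenase with a known deletion in B6, was at the C3 level, 1.01 above B6, and did not differ from the other RI strains by the test (−0.02, adjusted p = 0.935), since all 8 were on the same side. Tlr4, the endotoxin receptor that carries a loss-of-function mutation in C3, did not pass in BXH4 (0.04, adjusted p = 0.881).

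**Figure D5:**
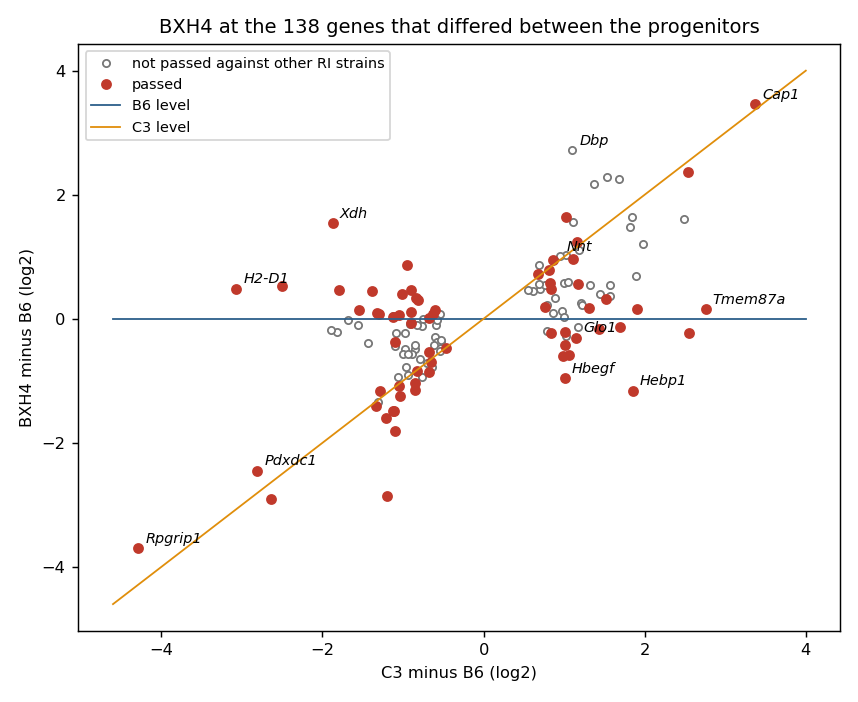
BXH4 minus B6 (vertical, log2) against C3 minus B6 (horizontal, log2) at the 138 genes that differed between the progenitors, filled where BXH4 passed against the other RI strains. Genes on the horizontal line are at the B6 level and those on the diagonal at the C3 level; 71 are nearer B6 and 67 nearer C3.

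Both BXH4 arrays lay beyond all 16 other RI arrays at 18 of the 65 B6-level and 26 of the 67 C3-level genes. Over the 632 genes this held at 315, and over all tested genes at 6.38%. Of the 65 and 67 genes, 29 and 22 also differed between the progenitors by the test, and at these a median of 4 of the 8 other RI strains were on the same side as BXH4, with 2 to 8 strains at the B6-level genes and 1 to 6 at the C3-level genes.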

How the data were processed

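The authors' deposited table holds 1 linear signal intensity per probe set and array, 22690 probe sets on 24 arrays. The sources used here do not give its software or scaling; its equal trimmed means show a common scaling. RNA was isolated with Trizol and amplified to biotin-labelled cRNA from an oligo(dT) primer, per the labels' protocols. Probe sets with a single gene symbol (20380) were named through the platform annotation, and of a gene's probe sets the one of highest mean was used, if that mean was in the top 60% of probe sets (a signal of 169). This left 8280 genes.

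Values were analysed as log2(signal + 16), so differences of dim genes are understated. A linear model of the 12 strains was fitted with limma 3.58.1 in R 4.3.3 (eBayes with a mean-variance trend, 12 residual degrees of freedom) and tested on simulated data. BXH4 was contrasted with the mean of the other 8 RI strain means, with B6 and with C3, and p-values were adjusted by the Benjamini-Hochberg method over all tested genes within each contrast, with a threshold of 0.05. The words higher, lower, rose and fell refer to genes that passed. The number of arrays limits the precision. The labels name no batch.

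Named genes were the 10 largest and 10 lowest outside differences, the 6 largest and 6 lowest at the B6 and at the C3 level, up to 6 members that passed (or 3 where none did) by smallest p for each list, and H2-K1, H2-D1, Glo1, Nnt, Gzma, Irf8 and Tlr4, and other genes are named as examples chosen after their values were seen. The 30 lists (27 with at least 4 tested members) and the classes were described by counts and medians. Members, rules and lists were chosen with earlier results of these data known. Alternatives changed the normalization, offset, filter, probe set choice, trend, block, arrays fitted, unit of replication and tolerance, and left out each array in turn. The muscle covariate and a rule by arrays were added after seeing the data.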

Additional observations from a re-analysis of the deposited data

How the results depend on the processing

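The count of 632 genes was 581 to 735 under quantile normalization, median centring or another offset. It was 551 to 554 with no filter, the top 40% of probe sets, no trend or the 18 RI arrays alone. With every probe set it was 1001 (437 higher, 564 lower). With the mean of a gene's probe sets it was 691, and 445 of the 632 genes still passed. Other probe sets existed for 306 of the 632 genes, and at 64 of these their median had the opposite sign. Such an opposite sign was found at 10 of 53 progenitor-level genes and 2 of 29 outside genes. Under median centring 38.2% of calls were higher, against 46.0%. With the muscle covariate 402 genes passed (180 higher, 222 lower), as did 88 for BXH4 minus B6, 24 outside, 18 at the C3 level, 11 interferon and 4 oxidative phosphorylation genes. With strain means as samples 11 passed (7 higher, 4 lower), with 2 NK, 1 interferon and 0 oxidative phosphorylation genes; 1048 had an unadjusted p below 0.05 in limma. C3 minus B6 gave 209 with every probe set, oxidative phosphorylation 12 with the mean of probe sets, and NK 3 in the top 40%. A tolerance of 0.3 left 28 genes at the B6 level and 38 at the C3 level, and calling a gene outside when both BXH4 arrays lay beyond all 4 progenitor arrays gave 456, beside 25.2% of all genes. Leaving out 1 array in turn gave ranges of 134 to 722 genes (52 to 344 higher, 82 to 391 lower), 59 to 302 for BXH4 minus B6, 89 to 304 for BXH4 minus C3, 75 to 141 for C3 minus B6, 17 to 79 outside, 15 to 70 at the B6 level, 12 to 93 at the C3 level, 4 to 11 NK, 2 to 17 interferon and 0 to 8 oxidative phosphorylation genes, and 48.5% to 64.6% of progenitor-specific genes on the B6 side, the highest without C3 replicate 1. Leaving out a BXH4 array also leaves 1 sample in that group, which is assumed to vary like the others. Pdxdc1 reversed to 1.85 with an offset of 64 and lay between −1.55 and 2.16 with 1 array left out, above 0 without single arrays of BXH7, BXH8, BXH9, BXH10, BXH14 or B6, where another probe set was brighter. Over 109 named genes and their alternatives, strain means left out, 3574 values kept their side of the threshold. A further 279 lost the call, 22 gained one and 13 reversed. A change of sign counted as kept where neither value passed, as for Krt13, which ran from −3.92 to 1.43. Deviations from the strain mean correlated between replicate 1 arrays at a median of −0.004 (−0.299 to 0.344 over 66 pairs). Shared processing of some strains was not tested. With the replicate block 668 genes passed.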
